A study of Mus musculus with 8 samples.

Results

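The genes of the aggrecan and hyaluronan aggregate were followed in rib chondrocytes, the cells that form cartilage, of mouse embryos labelled transgenic for the homeobox gene Hoxc8. The 9 genes are Acan (aggrecan), Vcan (versican), the link protein genes Hapln1, Hapln3 and Hapln4, the hyaluronan synthase genes Has1, Has2 and Has3, and the hyaluronan receptor gene Cd44. Every probe set that the platform annotation assigns to exactly 1 of these symbols was taken, which gave 23 of the 45101 probe sets on the array, with at least 1 for each of the 9 genes, out of 18193 genes that such probe sets name. The groups are Hoxc8 transgenic and wild type control embryos, with 4 samples each, all of strain FVB at stage E18.5. Embryos of 4 litters were sorted by genotype, so that each litter, numbered 1 to 4 here, gave 1 transgenic and 1 control sample. Cells were released from whole rib cages with collagenase and trypsin and passed through a strainer, with no sort for cell type described. The sources used here do not name the promoter of the transgene or the transgenic line, nor the number and sex of the embryos in a sample.

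Cartilage resists compression because aggrecan, a proteoglycan whose core protein carries many chondroitin sulphate chains, binds in large numbers to strands of hyaluronan. Link protein locks the globular end of aggrecan onto the strand. Hyaluronan itself is made at the plasma membrane by the hyaluronan synthases, and Cd44 tethers it to the cell surface. Versican is built like aggrecan, belongs to the same lectican family and is known for its expression in early limb mesenchyme, perichondrium and other soft connective tissue, while aggrecan replaces it in differentiated cartilage.

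The values are microarray signals on a linear scale, and fold changes were computed on log2(signal + 22.1), which understates those of dim probe sets. A signal belongs to its own probe set, so levels are compared between samples and not between probe sets. Array medians lay between 107 and 121. Hoxc8 had signals of 4096, 3400.0, 3810.4 and 4235 in the transgenic samples of litters 1 to 4, against 4112, 3066, 3755 and 3143 in the control samples. Its fitted difference was 0.15 log2 (SE 0.08) and was not called (limma, adjusted p = 0.9998), so the array checks the genotype labels little. The cells carried the markers of cartilage. All 15 chondrocyte marker genes with a probe set, Col2a1 and Matn1 among them, had a mean signal above the minimum for testing. Markers of muscle, perichondrium, vessels and blood cells were also above it, as given below.

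The promoters of Acan, Vcan and Cd44 are shown because 1 tested probe set of each was called between litters, as described below. They are also shown because 1 probe set of Vcan and 2 of Cd44 moved together across the arrays. Of the 9 genes, 6 had an entry in the promoter table, and Has2, which also had a probe set called between litters, was not among them. Each is the stretch of 250 bases before the annotated start, 5′ to 3′, from RefSeq on build GRCm38.p6, at chr7:79052976-79053225, plus strand, chr13:89742513-89742762, minus strand and chr2:102901666-102901915, minus strand. Capitals mark TAAT, the core that homeodomain proteins such as Hox factors bind, searched on both strands, so that ATTA counts as well.
Acan: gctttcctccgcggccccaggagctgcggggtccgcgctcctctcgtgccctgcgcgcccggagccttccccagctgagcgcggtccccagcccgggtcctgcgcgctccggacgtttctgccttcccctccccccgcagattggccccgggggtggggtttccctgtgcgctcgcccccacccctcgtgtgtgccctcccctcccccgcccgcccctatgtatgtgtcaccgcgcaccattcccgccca
Vcan: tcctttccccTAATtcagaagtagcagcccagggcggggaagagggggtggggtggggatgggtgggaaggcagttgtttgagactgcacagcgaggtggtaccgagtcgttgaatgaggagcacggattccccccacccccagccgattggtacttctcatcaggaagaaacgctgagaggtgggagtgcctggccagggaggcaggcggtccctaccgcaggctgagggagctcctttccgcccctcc
Cd44: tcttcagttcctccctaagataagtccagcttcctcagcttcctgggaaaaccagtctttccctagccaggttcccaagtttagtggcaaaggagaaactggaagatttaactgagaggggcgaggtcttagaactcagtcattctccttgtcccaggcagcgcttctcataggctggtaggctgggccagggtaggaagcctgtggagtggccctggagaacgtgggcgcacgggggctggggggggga
TAAT was found 1 time in the Vcan stretch, starting 240 bases before the start, and 0 times in those of Acan and Cd44. It was found in 54.9% of 32851 mouse promoter stretches of the same length. The core of SOX factor sites, searched as ACAAT on both strands, was found 0 times in the 3 stretches and in 27.7% of all. Of the members not shown, Hapln1 had TAAT 1 time and ACAAT 1 time, Hapln3 had ACAAT 1 time and TAAT 0 times, and Has1 had neither. The share of G and C was 74.4% for Acan, 62.4% for Vcan and 56.4% for Cd44, against a median of 52.4% over all stretches. These matches describe the letters in this window only.

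The comparison of genotypes asks whether the transcripts of this matrix differ in embryos labelled Hoxc8 transgenic, in which the arrays themselves did not show raised Hoxc8 past the threshold. None of the members differed past the threshold. Of the 23 probe sets, 15 from 7 genes had a mean signal over all arrays of at least 110, the median of all probe sets, and were tested. The other 8, which include the only probe sets of Hapln4 and Has3, were too dim. By limma with litter as a block, 0 of the 15 passed an adjusted p of 0.05, in a comparison where 0% of all 22519 tested probe sets were called. One probe set of Vcan had an unadjusted p under 0.05, which makes 1 of 15 where 3.34% of all tested probe sets were under it. Fitted differences were positive for 9 and negative for 6 of the 15 (48.8% positive over all tested), with a median of 0.02 log2 against 0.00 over all tested. The arrays of both genotypes overlapped for all 15, and did not overlap for 1.02% of all tested probe sets. For 13 of the 15, the 95% interval of the difference lay within 1.5-fold in either direction, as it did for 83.2% of all tested. The exceptions were Has1 and 1 probe set of Cd44.

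**Figure D1:**
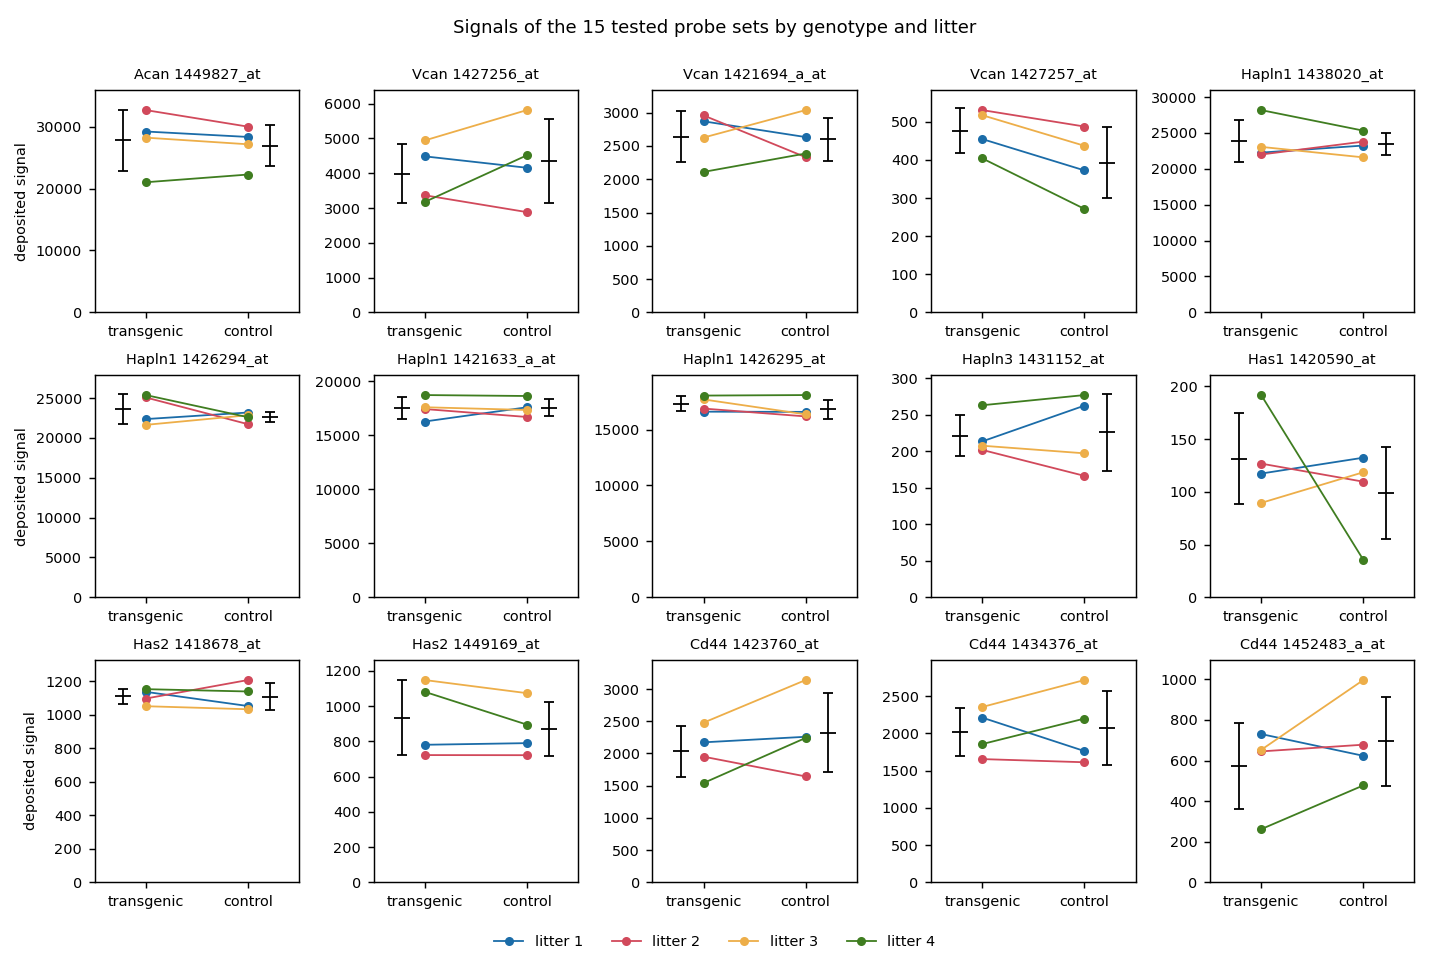
Deposited signals (linear, from 0) of the 15 tested probe sets, transgenic samples on the left of each panel and control samples on the right, with a line joining the samples of a litter. Black marks give the mean and SD of 4 samples; the genotypes overlap in all 15 panels, and the signals of Acan differ more between litters than between genotypes.

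Aggrecan is the main proteoglycan of cartilage, and its transcript stood at close levels in both genotypes. Acan (probe set 1449827_at) had signals of 29208, 32666, 28219 and 21014 in the transgenic samples of litters 1 to 4, against 28330.2, 29993, 27145 and 22259 in the control samples. Both samples of litter 4 were the lowest of their genotype and both of litter 2 the highest. Means were 27777 ± 4895 in transgenic samples and 26932 ± 3327 in control samples (SD, n = 4 each). The paired difference was 0.03 log2 (SE 0.06), and its 95% interval ran from 0.936-fold to 1.12-fold (limma, adjusted p = 0.9998), and it was positive in 3 of 4 litters.

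Versican was measured by 3 tested probe sets, whose differences between genotypes did not point one way. The brightest, 1427256_at, had signals of 4485, 3366, 4941 and 3173 in transgenic samples, against 4157, 2882, 5814 and 4514 in controls. The transgenic sample was the higher in litters 1 and 2 and the lower in litters 3 and 4, and the fitted difference was -0.10 log2 (SE 0.11), with an interval from 0.794-fold to 1.09-fold. For 1421694_a_at the signals were 2871, 2959, 2626 and 2109.9 in transgenic samples, against 2634, 2331, 3039 and 2387 in controls. Its litters split in the same way, and its difference was 0.02 log2 (SE 0.10), with an interval from 0.877-fold to 1.17-fold.

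The third probe set of versican stood apart from the other two. Vcan 1427257_at had signals of 455, 531, 517 and 404 in transgenic samples, against 373, 488, 437 and 272 in controls. In all 4 litters the transgenic sample was the higher, with ratios of 1.22, 1.09, 1.18 and 1.49, although the ranges of the genotypes overlapped. Over all tested probe sets, 10.6% had the same sign in all 4 litters, and among the 15 here this was the only one. Its means were 477 ± 58.7 in transgenic samples and 392 ± 93.3 in control samples (SD, n = 4 each), and its difference of 0.29 log2 (SE 0.12), with an interval from 1.02-fold to 1.47-fold, had an unadjusted p of 0.0337 and an adjusted p of 0.9998 (limma), so it was not called. Versican is made as several splice forms, and the sources used here do not say which of them each probe set detects.

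Hapln1, the link protein of cartilage, varied little. Its 4 probe sets were all tested, and in each the highest of the 8 arrays was between 1.12 and 1.3 times the lowest. Hapln1 1438020_at had signals of 22255, 21991, 23052 and 28176 in transgenic samples, against 23237, 23788, 21592 and 25313 in controls. Litter 4 gave the highest sample of each genotype. Its difference was 0.02 log2 (SE 0.06), with an interval from 0.918-fold to 1.12-fold. The differences of the other 3 were 0.06 log2 for 1426294_at, -0.01 log2 for 1421633_a_at and 0.04 log2 for 1426295_at. Over the 4 probe sets the intervals reached from 0.909-fold to 1.16-fold, the narrowest of any member gene with several tested probe sets.

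The other link protein genes had 1 probe set each. Hapln3, which is expressed more widely outside cartilage, had signals of 213, 202, 207 and 263 in transgenic samples, against 262, 166, 197 and 277 in controls (probe set 1431152_at). Litter 4 was the highest in both genotypes and litter 2 the lowest, and the difference was -0.01 log2 (SE 0.16), with an interval from 0.782-fold to 1.27-fold. Hapln4, a link protein of the nervous system, was below the minimum for testing, with signals of 52.5, 55.3, 50.2 and 41.3 in transgenic and 62, 167, 39.3 and 109 in control samples (probe set 1435650_at). Its transgenic samples lay close together, while controls of litters 1, 2 and 4 were above all of them and that of litter 3 was below all of them.

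Of the 3 enzymes that extrude hyaluronan, Has2 is the one that limb and heart development depend on. Has2 was measured by 2 tested probe sets. Signals of Has2 1418678_at were 1137, 1097, 1051 and 1153 in transgenic samples, against 1052, 1208, 1033 and 1139 in controls. All 8 arrays lay within 1.17-fold of each other, and the difference was 0.00 log2 (SE 0.09), with an interval from 0.879-fold to 1.14-fold. Signals of 1449169_at were 780.1, 722, 1148 and 1081 in transgenic samples, against 789, 721, 1073 and 895 in controls. Here litters 3 and 4 were above litters 1 and 2 in both genotypes, a split that 1418678_at did not show, and the difference was 0.09 log2 (SE 0.09), with an interval from 0.921-fold to 1.22-fold.

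Has1 had the largest fitted difference of the 15, and it rested on litter 4. Its signals were 117, 127, 89.5 and 192 in transgenic samples, against 132, 109.6, 119 and 35.6 in controls (probe set 1420590_at). The transgenic sample of litter 4 was the highest array and the control sample of the same litter the lowest. In litters 1, 2 and 3 transgenic over control gave 0.886, 1.16 and 0.755. The difference was 0.40 log2 (SE 0.33), with an interval from 0.795-fold to 2.18-fold (limma, adjusted p = 0.9998), and it turned to -0.10 log2 without litter 4. The mean of the control samples, 99.1, was below the minimum for testing, which Has1 passed through the transgenic samples. Has3 was far below it, with signals from 2.61 to 7.71 in transgenic and from 2.3 to 9.85 in control samples (probe set 1420589_at).

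Cd44 is the receptor that holds hyaluronan at the surface of chondrocytes and of many other cells, leukocytes and fibroblasts included. All 3 of its tested probe sets had negative fitted differences, none of them called. Cd44 1423760_at had signals of 2173, 1950.4, 2478 and 1541 in transgenic samples, against 2259, 1643, 3140.4 and 2242 in controls, a difference of -0.17 log2 (SE 0.11) with an interval from 0.75-fold to 1.05-fold. For 1434376_at they were 2213, 1656, 2356 and 1858 in transgenic samples, against 1763, 1613, 2719 and 2200.4 in controls. The difference was -0.02 log2 (SE 0.10), with an interval from 0.85-fold to 1.14-fold, and its sign turned without litter 3 or without litter 4. In both probe sets litter 3 was the highest of its genotype.

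The third, Cd44 1452483_a_at, had the lowest fitted difference of all 15. Its signals were 730.4, 645, 653 and 262 in transgenic samples, against 623, 678, 997 and 477 in controls. Litter 4 was the lowest in both genotypes, and the transgenic sample was the higher only in litter 1, with ratios of 1.17, 0.951, 0.655 and 0.548. Its difference was -0.31 log2 (SE 0.16), with an interval from 0.636-fold to 1.02-fold, an unadjusted p of 0.0659 and an adjusted p of 0.9998 (limma). It was -0.15 log2 without litter 4 and -0.49 log2 without litter 1.

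**Figure D2:**
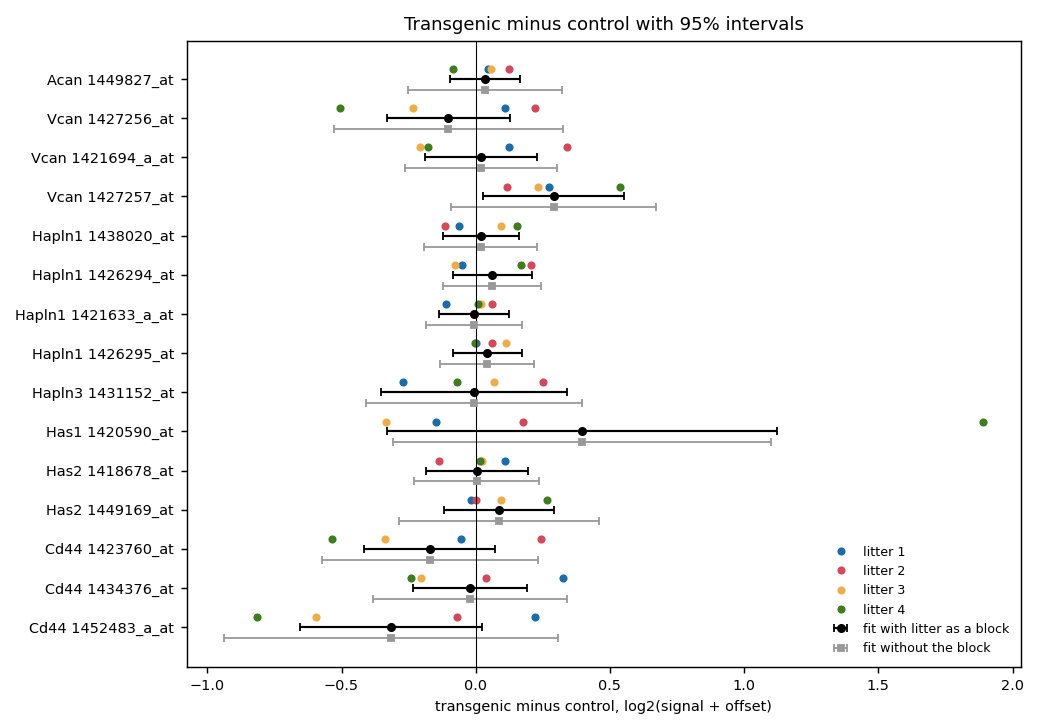
Transgenic minus control on the log2(signal + 22.1) scale for the 15 tested probe sets, with points for single litters, the fit with litter as a block in black and the fit without it in grey; bars are 95% intervals. All intervals without the block include 0, and with the block only that of Vcan 1427257_at, at 0.29, does not; it was not called after adjustment.

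The remaining probe sets of Vcan and Cd44 were below the minimum. Vcan 1433044_at had signals from 55.3 to 109.7 in transgenic and from 38.1 to 119.8 in control samples. The other 4 probe sets of Vcan lay between 2.5 and 45.2 in transgenic and between 1.74 and 43.5 in control samples, and Cd44 1443265_at between 5.6 and 8.45 in transgenic and 1.78 and 22.1 in control samples. These 6 probe sets were not tested.

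Litters differed where genotypes did not. The moderated F-test of limma over the litter terms, which allows for genotype, called 4 of the 15 probe sets, where 9% of all tested probe sets were called. With only probe sets of a mean signal of at least 492 tested, 6 member probe sets were called, where 20.5% of all were. That fit left out Vcan 1427257_at, Hapln3 and Has1. The 4 of the main fit were Acan 1449827_at (adjusted p = 0.0111), Cd44 1452483_a_at (0.0249), Vcan 1427256_at (0.029) and Has2 1449169_at (0.0355). The other probe sets of Cd44 stood at adjusted p of 0.0612 (1423760_at) and 0.0597 (1434376_at). The other tested probe sets of Vcan stood at 0.289 (1421694_a_at) and 0.12 (1427257_at). Of the 4 of Hapln1, 0 passed, with adjusted p from 0.185 to 0.809. All 4 calls were lost when no signal minimum was set and when the variances were moderated without an intensity trend, settings under which 2.21% and 0% of all probe sets were called. Without litter 2 or without litter 3 the call of Acan alone of these 4 held, and without litter 4 those of Vcan 1427256_at and Has2 1449169_at held, while Acan and Cd44 1452483_a_at stood at adjusted p of 0.376 and 0.556. The fits without litter 2, 3 or 4 called 2.5%, 4.64% and 4.96% of all probe sets. Litter and anything shared by the samples of a litter, such as the day of preparation, cannot be told apart.

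The litters did not rank alike in the 4 genes. Means over both genotypes were 28769, 31329.8, 27682 and 21636 for Acan in litters 1 to 4, with litter 4 below the rest. For Vcan 1427256_at they were 4321, 3124, 5378 and 3844, highest in litter 3 and lowest in litter 2. Cd44 1423760_at took the same order in its extremes, with 2216, 1797, 2809 and 1891, and so did Cd44 1434376_at, with 1988, 1634, 2537 and 2029. For these probe sets litter 3 was the highest in both genotypes. Among transgenic samples, however, Vcan 1427256_at and Cd44 1423760_at were lowest in litter 4 and not in litter 2. Cd44 1452483_a_at was also highest in litter 3 but lowest in litter 4, with 677, 662, 825 and 369.6. Has2 1449169_at had 785, 721, 1110.3 and 988, lowest in litter 2 and highest in litter 3, while the other probe set of Has2 was not called (adjusted p = 0.763). Over the 8 arrays, Vcan 1427256_at followed Cd44 1423760_at with a Pearson correlation of 0.95 and Cd44 1434376_at with 0.92, given as a description because the arrays of a litter are not independent. Other pairs of these genes were less alike. Vcan 1427256_at and Cd44 1452483_a_at gave 0.53, Vcan 1421694_a_at gave 0.72, 0.39 and 0.83 with Cd44 1423760_at, 1434376_at and 1452483_a_at, and Vcan 1427257_at gave -0.08, -0.16 and 0.37 with the same 3.

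**Figure D3:**
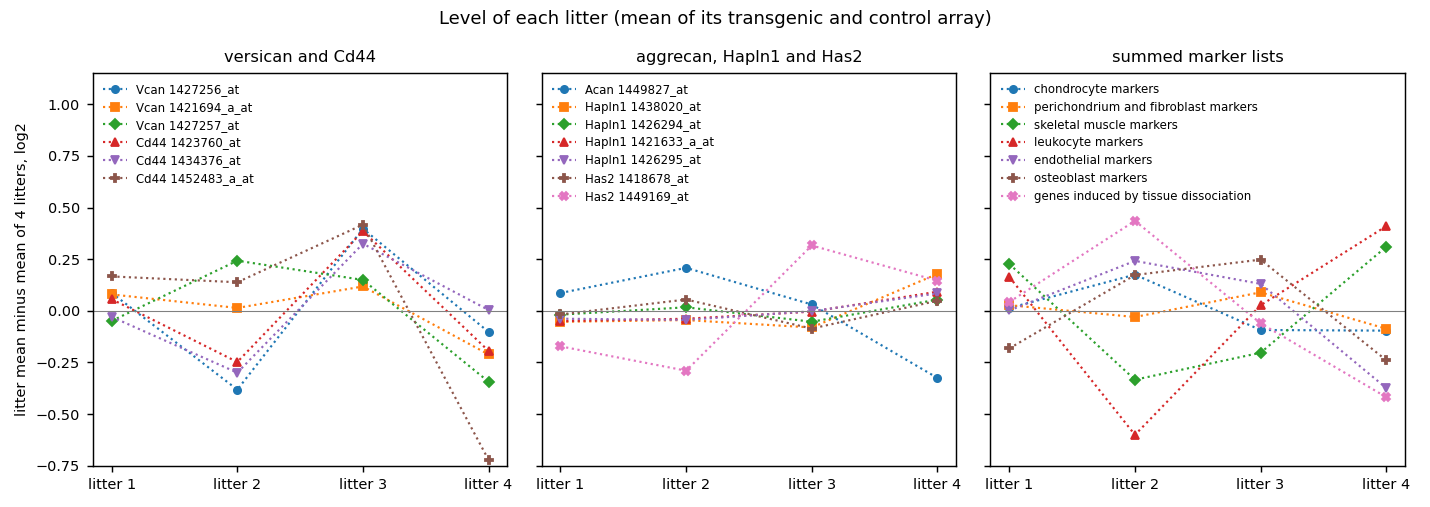
Log2 level of each litter, averaged over its transgenic and control sample, relative to the mean of the 4 litters, for probe sets of Vcan and Cd44, of Acan, Hapln1 and Has2, and for the summed signal of marker lists. Litters have no order and dotted lines only join points of an item. Vcan 1427256_at, Has2 1449169_at and 2 probe sets of Cd44 are highest in litter 3 and lowest in litter 2. Acan, Vcan 1427257_at and the endothelial, dissociation and chondrocyte lists are highest in litter 2 and lowest in litter 4. The chondrocyte list is close in litters 3 and 4, at -0.09 and -0.10.

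Genes of other cells and of the response to digestion were set beside the litter differences. Of 25 tested genes known to be induced when tissue is dissociated, 23 were called between litters. Over all tested probe sets 9% were called, and 20.5% when only those with a mean signal of at least 492 were tested. No such share was computed over genes, which these lists take by their brightest probe set. The summed signal of the dissociation list relative to the mean of the 4 litters stood at 0.04, 0.44, -0.06 and -0.42 log2 in litters 1 to 4. It was highest in litter 2 and lowest in litter 4, as for Acan. Endothelial markers, of which 1 of 8 tested was called, had the same extremes with 0.00, 0.24, 0.13 and -0.37 log2. Chondrocyte markers, 4 of 15 called, stood at 0.01, 0.18, -0.09 and -0.10 log2, highest in litter 2, with litters 3 and 4 close together. Among control samples their sum was lowest in litter 3, at 405408 against 406304 in litter 4. Leukocyte markers, 3 of 9 called, went the other way with 0.16, -0.60, 0.03 and 0.41 log2, and so did skeletal muscle markers, 6 of 15 called, with 0.23, -0.33, -0.20 and 0.31 log2, both lowest in litter 2 and highest in litter 4. The sum over 15 perichondrium and fibroblast markers with a probe set, of which 13 were tested and Scx and Pi16 were too dim, stood at 0.03, -0.03, 0.09 and -0.09 log2, highest in litter 3 and lowest in litter 4. Osteoblast markers, 0 of 6 called, had these extremes too with -0.18, 0.17, 0.25 and -0.24 log2, and Cd44 1452483_a_at shared them. Of the 13 perichondrium and fibroblast markers 4 were called between litters, namely Col1a1, Col1a2, Pdgfra and Prrx1, while Col3a1, Lum, Dcn and Postn were among the rest; except for Col1a1 these are named after their values were seen. Erythroid markers, 1 of 2 called, stood at 0.24, 0.05, -0.55 and 0.26 log2. The part of these lists in the litter differences was not tested. RNA from a mixed digest cannot tell fewer cells of a type from less RNA per cell.

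Sox9, the transcription factor that drives Acan, was looked up after the litter differences had been seen. Its signals were 5467, 5132, 3665 and 3079.8 in transgenic samples, against 5073, 5652, 3388 and 3035 in controls. It was called between litters (limma, adjusted p = 0.00101), with means of 5269.7, 5392, 3527 and 3057 in litters 1 to 4, and its difference between genotypes was 0.03 log2. The mean of Sox9 was thus lowest in litter 4 and highest in litter 2, the same extremes as for Acan. The means of litter 3 were less alike, with Sox9 at 3527 against 5269.7 in litter 1 and Acan at 27682 against 28769. Of 7 tested regulators of aggrecan transcription, 2 were called between litters, Sox9 and Arid5a. The part of Sox9 in the litter difference of Acan was not tested.

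The same markers were set beside the genotype comparison. Of 9 tested leukocyte markers, 7 had a negative and 2 a positive difference and 0 were called, with a median of -0.24 log2 against 0.00 over all 10989 genes tested. Their summed signal ranged from 2894 to 5089 in transgenic and 3201 to 7384 in control samples. Ptprc, the CD45 gene that marks leukocytes, had signals of 77.8, 58.4, 328 and 236 in transgenic samples, against 590.2, 63.1, 174.4 and 308 in controls, and Cd68, Fcgr1, Itgam, Cd3e, Cd79a and Kit were below the minimum for testing. Their part in the negative differences of Cd44 was not tested. Of 13 tested perichondrium and fibroblast markers, 10 had a negative difference (median -0.06 log2), with sums from 167287 to 197274 in transgenic and 187509 to 206018 in control samples. Medians were -0.03 log2 over 15 chondrocyte, 0.00 over 15 skeletal muscle, -0.03 over 8 endothelial, -0.07 over 6 osteoblast and -0.15 over 2 tested erythroid markers, and 0 of them were called.

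None of the dissociation genes was called between genotypes. Of 25 tested, 21 had a positive difference, where 50.7% of all tested genes had one, with a median of 0.07 log2. Their summed signal was lower in the transgenic sample of litters 1 and 2 and higher in that of litters 3 and 4, with sums from 164311 to 287440.1 in transgenic and 156439.9 to 291833 in control samples. The cytokine gene Il6 had signals of 257, 461, 253 and 263 in transgenic samples, against 156, 371, 133 and 154 in controls, higher in the transgenic sample of all 4 litters. Their part in the differences of Has1 and of Vcan 1427257_at was not tested.

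The other genes that build, cut or bind this matrix were counted from lists. Of 18 tested genes that build chondroitin chains, 13 had a positive and 5 a negative difference, 0 called, with a median of 0.06 log2. The largest were Papss2, which makes the sulphate donor, at 0.21 log2, positive in 4 of 4 litters, and Chpf, a chondroitin polymerising factor, at -0.15 log2. Among 10 genes of sugar supply for hyaluronan and chondroitin, 9 for UDP-sugars and Slc35b2 for the sulphate donor, 7 were positive and 3 negative, 0 called (median 0.02 log2), with the nucleotide sugar transporter Slc35d2 at -0.23 and Slc35b2, which carries the sulphate donor into the Golgi, at -0.07 log2.

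Hyaluronan breakdown and binding gave no call either. Of 3 tested breakdown genes, 1 was positive and 2 negative, with Cemip, which is needed for hyaluronan degradation in fibroblasts, at -0.16 log2 and Cemip2 at -0.15 log2. Cemip had signals of 278, 153, 464 and 245 in transgenic and 284, 175, 478 and 335 in control samples. It differed between litters (limma, adjusted p = 0.00779), highest in litter 3 and lowest in litter 2 in both genotypes, the extremes that the litter means of Vcan 1427256_at had. Of 7 tested receptors and binding proteins, 2 were positive and 5 negative (median -0.04 log2), with the scavenger receptor Stab1 at -0.25 and Tnfaip6, which crosslinks hyaluronan, at 0.15 log2. Lyve1, Hmmr, Ptx3, Itih5 and Habp4 made up the rest. Bcan, the brevican gene, was the tested one of 3 other lectican and link protein genes, at -0.11 log2, and Ncan and Hapln2 were below the minimum.

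Proteases, partners and regulators completed the lists. Of 12 tested genes for enzymes that cut aggrecan and versican and their inhibitors, 5 were positive and 7 negative, 0 called (median -0.03 log2). Mmp13, a collagenase that also cuts aggrecan, stood at 0.42 log2, with signals of 169, 330.2, 146 and 113 in transgenic and 73.1, 154, 173.5 and 124 in control samples, and the versicanase Adamts9 at -0.24 log2. Among 11 partners of Cd44 at the membrane, 6 were positive and 5 negative, 0 called (median 0.02 log2), with Mmp9, a gelatinase that docks on Cd44, at -0.22 and Ezr, the ezrin gene that links Cd44 to actin, at -0.19 log2. Of 7 regulators of aggrecan transcription, 3 were positive and 4 negative, 0 called (median -0.09 log2), with Zfp219, a partner of Sox9, at -0.40 and Sox5, which acts with Sox6 beside Sox9, at -0.20 log2.

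The genes whose pattern over the 8 arrays was most like each member were named by the highest Pearson correlations of log2 values among 10989 genes. These are descriptions, since the highest of so many is chosen and the arrays share litters. For Acan they were Scd2, a fatty acid desaturase gene, at 0.99 and Pmepa1 at 0.99. Vcan 1427256_at was followed by Tgfb3, a TGF-beta ligand gene, at 0.99 and Ank2, an ankyrin gene, at 0.99. For Cd44 1423760_at they were Myh10, a non-muscle myosin gene, at 0.98 and Pdlim4 at 0.98. The closest to Hapln1 1438020_at were Dbi at 0.99 and Cstb, a cystatin gene, at 0.98, and to Has2 1418678_at Setd4 at 0.97 and Srpk1, a splicing kinase gene, at 0.96. Hapln3 was followed by Cby1 at 0.97 and Efcab2 at 0.96, and Has1 by Klf16 at 0.95 and Drosha, the gene of the microRNA processing enzyme, at 0.95.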

How the data were processed

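Total RNA of 8 samples was hybridised to Affymetrix arrays. The authors deposited 1 linear intensity per probe set and sample, made with MAS5 (no version stated) per the submitters' processing notes. The mean deposited signal of each array, after trimming 2% at each end, was 500.0, so no further normalization was applied. The number of arrays limits the precision.

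Genes were named from the platform annotation. Of 45101 probe sets, 34945 had 1 symbol, 932 several and 9160 none; 64 Affymetrix control probe sets were left out. The Entrez IDs of 34741 were found in a RefSeq gene table (GRCm38.p6), which changed 0 symbols.

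The offset of 22.1 was the 20th percentile of the signals, and 110 the median of the probe set means. The genotypes were compared in R 4.3.3 with limma 3.58.1 (lmFit, eBayes with intensity trend, two-sided, litter as a fixed block, 22519 probe sets, Benjamini-Hochberg, threshold 0.05), and the litters with its moderated F-test. Listed genes were taken by their brightest probe set. Figures were drawn with matplotlib 3.10.9. Only the fit of the genotype difference was tested on simulated data, with changes larger than any fitted for the members. The test between litters was not. The samples of each genotype are labelled as biological replicates from separate litters. The p-values, between genotypes and between litters, rest on how much the transgenic minus control difference varied over the litters. This spread was moderated towards that of other probe sets of like signal. All of it comes from these samples only.

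The members and lists were chosen with earlier results of these data known. Named were all members, Hoxc8, the 2 tested genes with the largest difference of each pathway list, 7 marker genes, and 2 genes per member by correlation. The number pairs the samples because the labels tie it to a litter. Deviations from the group means correlated at 0.0251, 0.434, 0.376 and 0.379 between same-numbered samples of litters 1 to 4, so the pairing was not seen for litter 1. The alternatives are given at the end.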

Additional observations from a re-analysis of the deposited data

Results flagged for a closer look

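Within each genotype, the gap between the highest or lowest of the 4 samples and its neighbour was divided by the whole range, for 92 sets of 4 values, and held against Dixon's 95% critical value. Samples stood apart in 8 sets, where chance gives about 5 (1 in 20).

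Among the members these were all dim probe sets below the minimum for testing. Vcan 1459767_x_at was 45.2 in the transgenic sample of litter 1 (next 7.99) and 40.5 in the control sample of litter 4 (next 9.43). Has3 1420589_at was 7.71 in the transgenic sample of litter 4 (next 3.19).

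The other 5 concern genes named beside the members. Tnfaip6 was 493 in the control sample of litter 2, the lowest (next 761). Col2a1 was 45059 in the transgenic sample of litter 2 (next 40101). Il6 was 460.7 in the transgenic sample of litter 2 (next 263) and 371 in the control sample of litter 2 (next 156). Cxcl1 was 1796 in the control sample of litter 2 (next 826). Of these 5, all lie in litter 2.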

How the results depend on the processing

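Between genotypes, 0 of the tested member probe sets, 0 listed genes and 0 of all probe sets passed in any of the 14 other fits. These include the fit without litter as a block (no replicate block), where 246 of all probe sets had an unadjusted p under 0.05 against 752 with the block, and 0 against 1 of the members. The fitted difference of Hoxc8 lay between 0.05 and 0.20 log2 and was never called. Of 207 other fits of single member probe sets, 191 kept the sign of the difference, 16 did not and 0 were called. The count of kept signs overstates stability. Fits that changed only the block, the signal minimum or the moderation of variances could not move the difference, so they kept its sign by design.

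When a litter was left out, the differences that turned sign ranged from -0.21 to 0.033 log2 for Vcan 1427256_at (turned without litter 4), from -0.087 to 0.096 for Vcan 1421694_a_at (litter 1 or 2), from -0.027 to 0.062 for Hapln1 1438020_at (litter 3 or 4) and from -0.028 to 0.030 for Hapln1 1421633_a_at (litter 1). They ranged from -0.091 to 0.082 for Hapln3 (litter 1 or 4), from -0.10 to 0.64 for Has1 (litter 4), from -0.031 to 0.050 for Has2 1418678_at (litter 1, 3 or 4) and from -0.14 to 0.052 for Cd44 1434376_at (litter 3 or 4). Without a change of sign they ranged from 0.0056 to 0.074 for Acan, from 0.21 to 0.35 for Vcan 1427257_at, from 0.012 to 0.11 for Hapln1 1426294_at, from 0.020 to 0.059 for Hapln1 1426295_at, from 0.026 to 0.12 for Has2 1449169_at, from -0.31 to -0.050 for Cd44 1423760_at and from -0.49 to -0.15 for Cd44 1452483_a_at. Array weights gave -0.0027 for Vcan 1421694_a_at and quantile normalization 0.015 for Hapln3. The mean over the 3 tested probe sets of Vcan was 0.069 log2, against -0.10 for its brightest. The cause was not tested.

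Vcan 1427257_at, Hapln3 and Has1 have no value under the stricter minimum of 492. Between litters, 4 member probe sets were called in the main fit, where 9% of all tested were called. There were 0 with no signal minimum (2.21% of all) and 0 without the intensity trend (0% of all). Leaving out litters 1 to 4 in turn gave 6, 1, 1 and 4, where 13.5%, 2.5%, 4.64% and 4.96% of all were called. The stricter minimum gave 6, where 20.5% of all were called. The remaining fits gave 4 or 5, where 8.42% to 9.85% of all were called. For the genotype difference, leaving out 1 array equals leaving out its litter in the blocked fit. This does not hold for the test between litters.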
